A study of Mus musculus with 16 samples.

Results

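The interferon-inducible GTPases examined here are 7 mouse genes, Tgtp1, Ifi47, Iigp1, Irgm1, Igtp, Gbp2 and Gbp3. They were read by 9 of the 41174 probes on the arrays, chosen because the array's gene name or description gives the gene or a synonym of it. All 9 probes passed the filter on dim probes that left 27522. The samples were Fr.B/C and Fr.A cells of BALB/c mice, sorted from fetal liver at day 16 of gestation and from adult bone marrow. In the Hardy scheme Fr.A is the pre-pro-B stage and Fr.B/C the pro-B stage that follows it. Each of 4 fetal liver sorts pooled the embryos of a litter, 8 on average, and each of 4 bone marrow sorts pooled 16 adult females. From every sort came a Fr.B/C and a Fr.A sample, so the 4 groups of 4 arrays are fetal liver Fr.B/C, fetal liver Fr.A, bone marrow Fr.B/C and bone marrow Fr.A. From each sample 100 ng of RNA was amplified and hybridised on a dual-colour Agilent array. The other channel always held one reference, RNA pooled from the cell lines EL4, DN3, P388d, J558, R1 and RS2. A level below is the log2 ratio of sample to that reference, so a level can be compared between samples for 1 probe but not between probes.

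Interferons act through receptors and JAK kinases that activate STAT and IRF transcription factors, which bind interferon-stimulated response elements (ISRE) and gamma-activated sites (GAS) in target promoters. Among the most strongly induced targets in mouse are 2 families of GTPases that attack the membrane around intracellular microbes. In the immunity-related family, Tgtp1 (also called Irgb6), Ifi47 (Irgd) and Iigp1 (Irga6) are effectors that load onto the vacuole of parasites such as Toxoplasma. Irgm1 and Igtp (Irgm3) are regulators of the same family that hold the effectors off the cell's own membranes. Gbp2 and Gbp3 are guanylate-binding proteins, larger GTPases that gather on microbial vacuoles and bacteria.

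The array files give each 60-base probe a position, and name no genome build for it, so exon and UTR were not worked out. Tgtp1 had 2 probes on the minus strand of chromosome 11, A_52_P676510 at chr11:48739509-48739568 and A_51_P478722 at chr11:48738923-48738982, starting 586 bases apart. Irgm1, labelled Ifi1 on the array, had 2 on the same strand, A_51_P262171 at chr11:48618405-48618464 and A_52_P126158 at chr11:48618755-48618814. Ifi47 was read at chr11:48849513-48849572 and Igtp at chr11:57933055-57933114, both on the plus strand. Gbp2 was read at chr3:141606730-141606789 and Gbp3, whose probe carries the older label Gbp4, at chr3:141542083-141542142, both on the plus strand. RefSeq lists Tgtp2, a near-identical copy, beside Tgtp1, and the probes cannot be assumed to tell the copies apart. Members of these families resemble each other in sequence, and cross-hybridisation between them was not tested.

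Promoter sequence was available from RefSeq (GRCm38.p6) for 6 of the 7 genes, not for Iigp1. The 120 bases upstream of the start site are shown because most of them hold letters of the sites that interferon-activated factors bind. Capitals mark the core of an ISRE on either strand, which is GAAA, any 2 bases and GAAA again, or TTTC, any 2 bases and TTTC on the opposite strand, and the core TTCNNNGAA of a GAS, which is its own reverse complement. The windows are chr11:48992247-48992366 (minus strand) for Tgtp1, chr11:49076467-49076586 (plus) for Ifi47, chr11:48871421-48871540 (minus) for Irgm1, chr11:58199436-58199555 (plus) for Igtp, chr3:142620543-142620662 (plus) for Gbp2 and chr3:142559924-142560043 (plus) for Gbp3.
Tgtp1: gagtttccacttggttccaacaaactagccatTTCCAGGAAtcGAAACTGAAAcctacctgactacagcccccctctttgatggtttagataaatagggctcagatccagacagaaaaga
Ifi47: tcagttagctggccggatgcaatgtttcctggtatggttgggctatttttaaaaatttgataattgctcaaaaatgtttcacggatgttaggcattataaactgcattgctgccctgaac
Irgm1: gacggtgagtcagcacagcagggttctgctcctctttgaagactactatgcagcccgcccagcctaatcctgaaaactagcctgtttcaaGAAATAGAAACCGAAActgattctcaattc
Igtp: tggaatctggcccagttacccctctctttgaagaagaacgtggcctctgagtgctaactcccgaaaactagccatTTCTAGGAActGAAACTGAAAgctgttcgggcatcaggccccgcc
Gbp2: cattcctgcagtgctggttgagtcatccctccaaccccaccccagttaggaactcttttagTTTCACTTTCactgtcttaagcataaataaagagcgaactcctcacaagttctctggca
Gbp3: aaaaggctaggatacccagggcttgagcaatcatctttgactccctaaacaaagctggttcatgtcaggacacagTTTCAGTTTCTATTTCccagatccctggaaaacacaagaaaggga
The search covered 250 bases before and 50 after each start site. An ISRE-type core lay in the windows of 5 of the 6 genes, Tgtp1, Irgm1, Igtp, Gbp2 and Gbp3, at -77, -30, -34, -59 and -45. Irgm1 and Gbp3 each held another core that overlaps the first, at -24 and at -39. A second start site of Gbp3 in RefSeq had no match, and neither had Ifi47, which says only that these letters are not in those windows. Tgtp1 and Igtp also held a GAS-type core at -88 and -45, in both genes 11 bases upstream of the ISRE-type core. Over the 32851 windows of 27025 genes, 3.44% held the ISRE-type core, 8.30% the GAS-type core and 0.454% both. A match is a description of letters and not a measured binding site.

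Across the arrays, 53.0% to 68.4% of probes were well above background in the sample channel and 0.219% to 0.626% were saturated, none of them a member probe. Within a group, arrays 1 and 2 resembled each other, and so did arrays 3 and 4 (r = 0.964 to 0.980 across probes in 7 such pairs). The exception was the fetal liver Fr.A pair 1 and 2 (r = 0.923), and the 16 remaining pairs gave r = 0.897 to 0.939. Arrays 1 and 2, and 3 and 4, carry opposite dyes, so each pair could be a dye swap of one extract, although the labels count 4 sorts. Results are therefore also given with each pair averaged, which leaves 2 values a group. The file headers show 6 scan sessions, and no session holds both tissues, so tissue and scan session cannot be told apart. In fetal liver each array pair was also scanned in a single session, so pair and session cannot be told apart there. The stage labels were checked on markers. Of 11 measured B-lineage genes 8 were higher in Fr.B/C than in Fr.A in each tissue, while the recombinase gene Rag1 was lower in both tissues (-1.06 ± 0.13 in fetal liver and -0.65 ± 0.13 in bone marrow; SE) and Rag2 in fetal liver (-0.45 ± 0.10). Pax5 had no probe that passed the filter. The fetal liver and bone marrow cells are bulk sorts, in which fewer expressing cells and less RNA per cell cannot be told apart.

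All 7 GTPase genes were lower in fetal liver than in bone marrow, at both stages. The comparison asks how fetal cells differ from adult cells of the same fraction. In Fr.B/C all 9 probes were lower with an adjusted p under 0.05 (Benjamini-Hochberg over all 27522 probes), where 14.7% of all probes were lower. In Fr.A all 9 were lower as well, where 15.7% of all probes were. The arrays of the 2 tissues did not overlap for any of the 9 probes in either fraction, against 15.3% of all probes lower without overlap in Fr.B/C and 14.2% in Fr.A. The median difference of the members was -1.40 in Fr.B/C and -1.43 in Fr.A, beside 0.01 and -0.01 over all probes. With the array pairs averaged, 7 of 9 probes passed in Fr.B/C and 8 of 9 in Fr.A. Iigp1 was well above background only in bone marrow, so the filter kept it only through that tissue. Its place among the lower probes was therefore largely set in advance. Because the genes were picked with results of these data known, these counts describe the genes and do not show that the family stands apart from others.

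**Figure D1:**
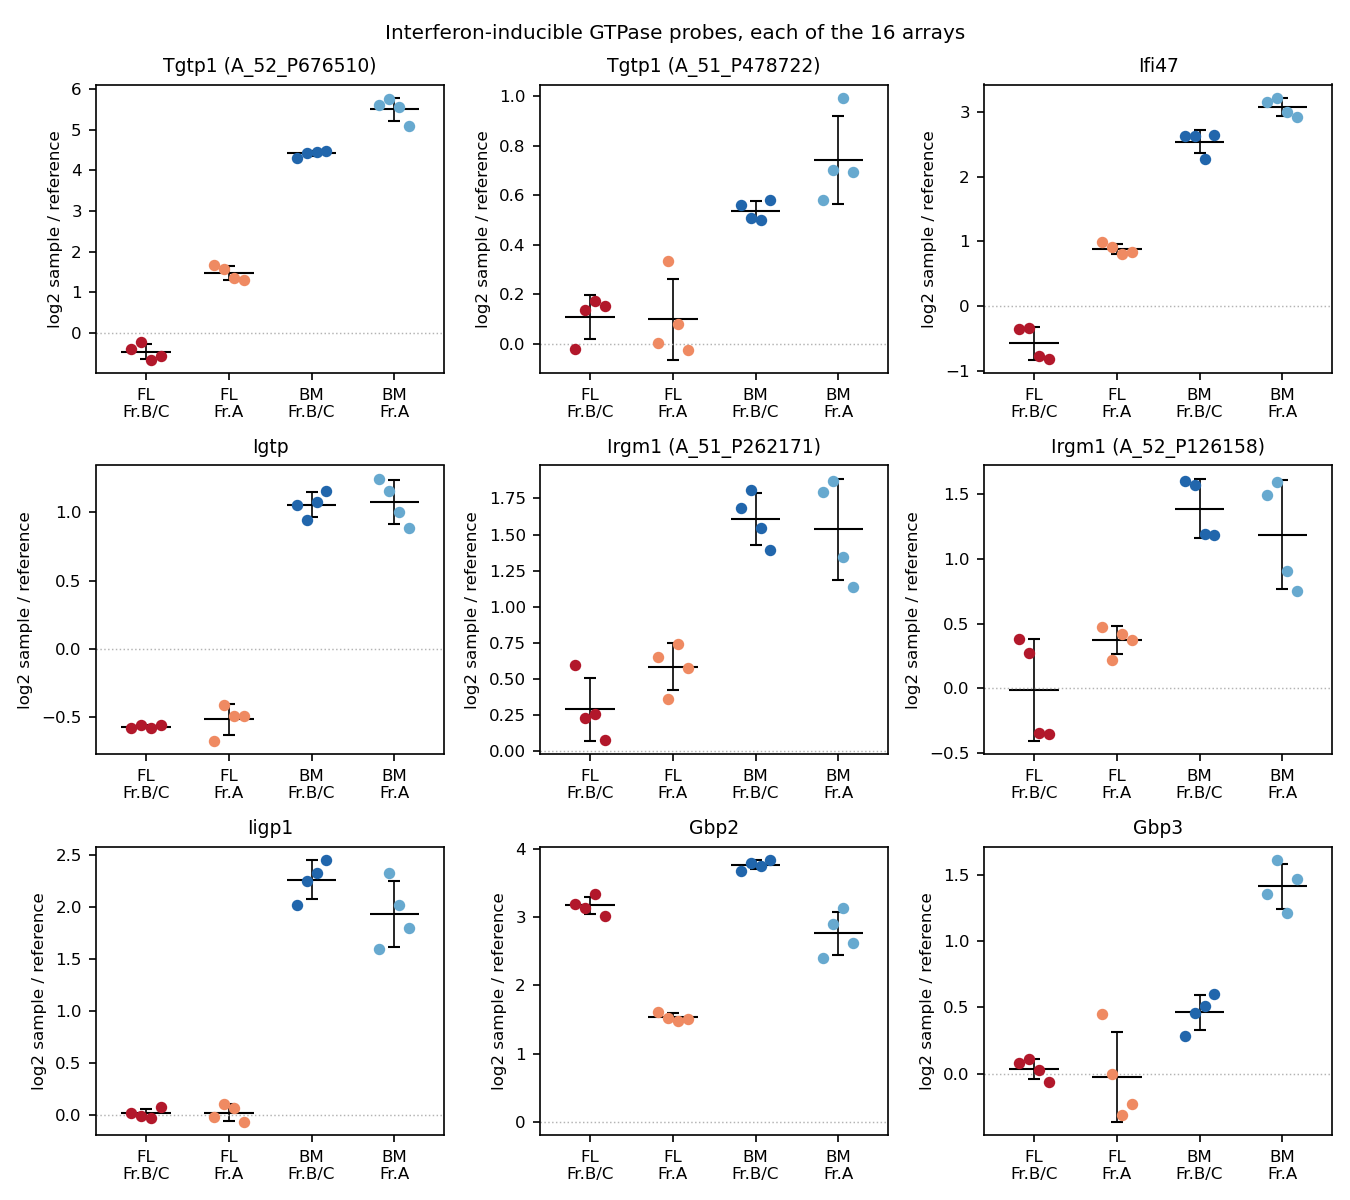
The log2 ratio of sample to reference (y axis, own scale in each panel) of each member probe on all 16 arrays, as points from array 1 to 4 within each group, with the group mean (line) and SD (bars). In every panel the fetal liver arrays (left) lie below the bone marrow arrays of the same fraction. Tgtp1 A_52_P676510 lies at -0.66 to 1.68 in fetal liver and 4.31 to 5.76 in bone marrow. The gaps are narrower for Tgtp1 A_51_P478722 and Gbp3.

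Among the effectors, Tgtp1 differed by very different amounts on its 2 probes. A_52_P676510 read -0.38, -0.23, -0.66 and -0.56 on the fetal liver Fr.B/C arrays, against 4.31, 4.43, 4.45 and 4.46 in bone marrow Fr.B/C. The fetal liver Fr.A arrays read 1.68, 1.57, 1.35 and 1.31, against 5.61, 5.76, 5.54 and 5.10 in bone marrow Fr.A. All bone marrow arrays thus lay far above all fetal liver arrays, and within each tissue Fr.B/C lay below Fr.A without overlap. The difference between tissues was -4.87 ± 0.14 in Fr.B/C (29.3-fold lower; SE, adjusted p = 3.08e-12) and -4.02 ± 0.14 in Fr.A (16.3-fold lower; adjusted p = 2.91e-11). By size these ranked 3 and 9 among all 27522 probes. With the array pairs averaged, the adjusted p was 6.02e-05 in Fr.B/C and 8.55e-05 in Fr.A.

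The other Tgtp1 probe, A_51_P478722, showed the same direction and a far smaller gap. Its sample signal was well above background on 3 of 4 fetal liver Fr.A arrays, and its reference signal on 15 of 16 arrays. A_52_P676510 was so on all arrays in both channels. Whether a dim signal narrowed the gap was not tested. It read -0.02, 0.14, 0.17 and 0.15 in fetal liver Fr.B/C and 0.56, 0.51, 0.50 and 0.58 in bone marrow Fr.B/C. In Fr.A it read 0.01, 0.33, 0.08 and -0.03 in fetal liver and 0.58, 0.70, 0.99 and 0.69 in bone marrow. The tissues did not overlap in either fraction. Its differences were -0.43 ± 0.10 in Fr.B/C (adjusted p = 0.00477) and -0.64 ± 0.10 in Fr.A (adjusted p = 0.000178). With the array pairs averaged the Fr.B/C difference no longer passed (adjusted p = 0.0796) and the Fr.A difference did (adjusted p = 0.0196). In the authors' deposited table of log2 ratios the differences of this probe were -0.86 and -1.07, and on the scanner software's processed signals -0.87 and -1.14, in the same order of fractions. The size of the Tgtp1 difference therefore depended on the probe and the processing, while the direction did not.

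Ifi47, the second effector, read -0.36, -0.35, -0.78 and -0.82 in fetal liver Fr.B/C, against 2.63, 2.64, 2.27 and 2.64 in bone marrow Fr.B/C. In Fr.A the values were 0.98, 0.92, 0.81 and 0.83 in fetal liver and 3.16, 3.22, 3.00 and 2.93 in bone marrow. The 4 groups took separate ranges, in the same order as for Tgtp1 A_52_P676510. Ifi47 was 8.71-fold lower in fetal liver Fr.B/C (-3.12 ± 0.12, adjusted p = 9.21e-11) and 4.57-fold lower in fetal liver Fr.A (-2.19 ± 0.12, adjusted p = 5.90e-09). Both calls held with the array pairs averaged (adjusted p = 0.000162 and 0.00079). Across the 16 arrays its levels and those of Tgtp1 A_52_P676510 had a Pearson r of 0.994, a description over arrays that share their groups and reference.

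Iigp1, the third effector, has 1 probe, on chromosome 18. Its sample signal was well above background on all 8 bone marrow arrays and on no array of fetal liver, and the signal of the reference channel was so on no array. Its ratios were 0.02, -0.01, -0.03 and 0.08 in fetal liver Fr.B/C and 2.02, 2.25, 2.33 and 2.46 in bone marrow Fr.B/C. In fetal liver Fr.A they were -0.02, 0.10, 0.07 and -0.07, against 1.60, 2.33, 2.02 and 1.79 in bone marrow Fr.A. Since the fetal liver signal is only a bound, Iigp1 was at least 4.15-fold lower in fetal liver Fr.B/C (adjusted p = 3.64e-09) and at least 3.42-fold lower in fetal liver Fr.A (adjusted p = 2.66e-08). These bounds set the bone marrow mean signal against the lowest signal called above background on the fetal arrays, or the probe's own where higher, on signals normalized per channel. The calls held with the array pairs averaged (adjusted p = 0.000155 and 0.000367).

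The regulators Igtp and Irgm1 were lower in fetal liver in both fractions. Igtp read -0.59, -0.56, -0.58 and -0.56 in fetal liver Fr.B/C and 1.05, 0.94, 1.07 and 1.16 in bone marrow Fr.B/C. In Fr.A it read -0.68, -0.41, -0.50 and -0.49 in fetal liver and 1.25, 1.16, 1.00 and 0.88 in bone marrow. Its levels fell into 2 ranges, set by tissue, with Fr.B/C and Fr.A overlapping inside each. The differences were -1.63 ± 0.09 in Fr.B/C (3.10-fold lower, adjusted p = 2.90e-09) and -1.59 ± 0.09 in Fr.A (3.02-fold lower, adjusted p = 4.87e-09). With the array pairs averaged the adjusted p was 0.000544 in Fr.B/C and 0.000725 in Fr.A.

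Irgm1 was read by probes that gave like results. A_51_P262171 read 0.60, 0.23, 0.26 and 0.08 in fetal liver Fr.B/C and 1.68, 1.81, 1.54 and 1.40 in bone marrow Fr.B/C. In Fr.A it read 0.65, 0.36, 0.75 and 0.57 in fetal liver and 1.79, 1.87, 1.35 and 1.14 in bone marrow. Arrays 3 and 4 read below arrays 1 and 2 in both bone marrow groups, yet every bone marrow array lay above every fetal liver array. The differences were -1.32 ± 0.15 in Fr.B/C (adjusted p = 1.24e-05) and -0.95 ± 0.15 in Fr.A (adjusted p = 0.000241). On A_52_P126158 they were -1.40 ± 0.21 in Fr.B/C (adjusted p = 0.000128) and -0.81 ± 0.21 in Fr.A (adjusted p = 0.00777). With the array pairs averaged the last of these no longer passed (adjusted p = 0.148), and the other Irgm1 differences did (adjusted p = 0.0127, 0.0351 and 0.0357).

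The guanylate-binding genes were lower in fetal liver as well, by less in Fr.B/C than in Fr.A. Gbp2 read 3.19, 3.13, 3.33 and 3.02 in fetal liver Fr.B/C and 3.68, 3.79, 3.75 and 3.84 in bone marrow Fr.B/C. In Fr.A it read 1.61, 1.52, 1.48 and 1.51 in fetal liver and 2.40, 2.89, 3.13 and 2.61 in bone marrow. Fr.B/C of either tissue lay above Fr.A of the same tissue, the reverse of the order of Tgtp1 A_52_P676510. Fetal liver Fr.B/C overlapped bone marrow Fr.A. The tissue differences were -0.60 ± 0.13 in Fr.B/C (1.51-fold lower, adjusted p = 0.00238) and -1.23 ± 0.13 in Fr.A (2.34-fold lower, adjusted p = 3.23e-06). Averaged pairs kept both calls (adjusted p = 0.0269 and 0.00159), whereas with the pairs as a random block the Fr.B/C difference did not pass (adjusted p = 0.0728). With median centring in place of loess it was -0.94.

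Gbp3 read 0.08, 0.11, 0.03 and -0.06 in fetal liver Fr.B/C and 0.28, 0.46, 0.51 and 0.60 in bone marrow Fr.B/C. In Fr.A it read 0.45, 0.00, -0.31 and -0.23 in fetal liver and 1.35, 1.61, 1.21 and 1.47 in bone marrow. Bone marrow Fr.A stood apart from the other 3 groups, which lay within a range of less than 1 log2 unit. Gbp3 was 2.70-fold lower in fetal liver Fr.A (-1.43 ± 0.14, adjusted p = 2.09e-06, and 0.00436 with averaged pairs). In Fr.B/C the difference was -0.42 ± 0.14, close to the threshold (adjusted p = 0.0353), and -0.67 with median centring. It did not pass with averaged pairs (adjusted p = 0.203), in the authors' deposited table of log2 ratios (adjusted p = 0.0679) or without any 1 of 7 arrays. Those 7 are the 4 of fetal liver Fr.B/C and arrays 2, 3 and 4 of bone marrow Fr.B/C, and the adjusted p without one of them was 0.0505 to 0.101.

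**Figure D2:**
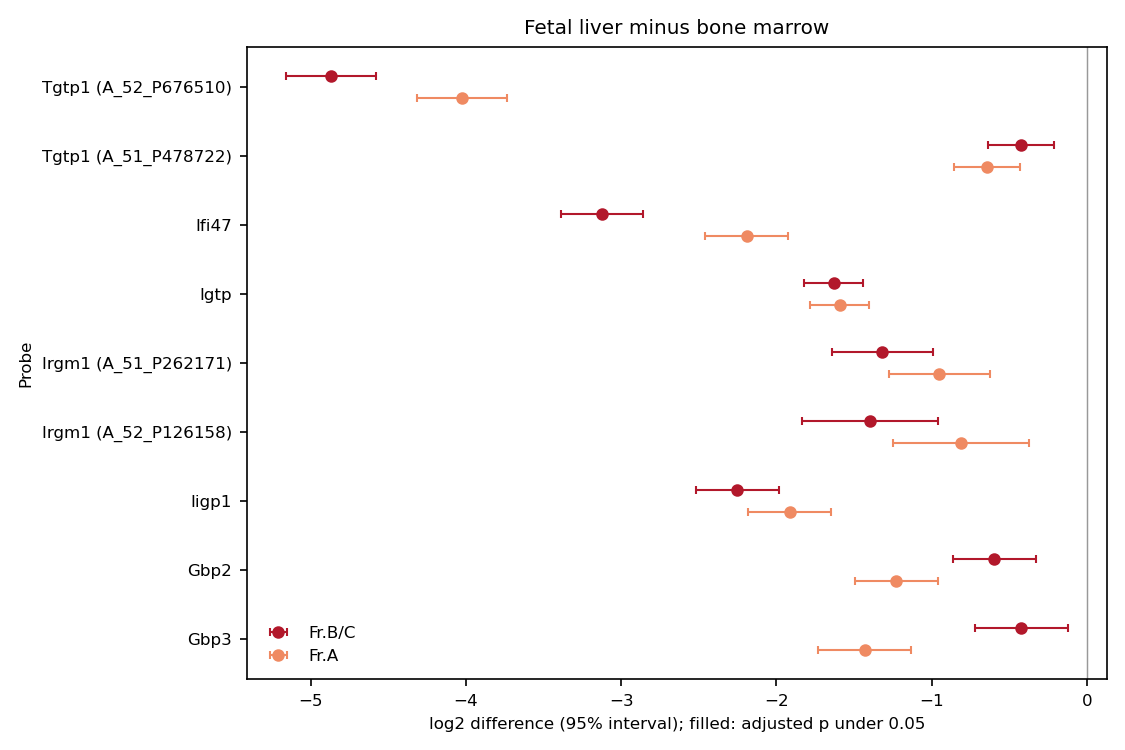
The log2 difference between fetal liver and bone marrow (x axis) for each member probe (y axis) in Fr.B/C and in Fr.A, with 95% intervals from the limma model and filled points where the adjusted p is under 0.05. All points lie left of 0, from -4.87 for Tgtp1 A_52_P676510 in Fr.B/C to -0.42 for Gbp3 in Fr.B/C.

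Between the stages the genes went different ways. The comparison of Fr.B/C with Fr.A in each tissue asks what changes from the pre-pro-B to the pro-B stage. In fetal liver 3 of 9 probes passed, Gbp2 as higher in Fr.B/C and Tgtp1 A_52_P676510 and Ifi47 as lower, where 22.2% of all probes passed. In bone marrow 4 of 9 probes passed, Gbp2 as higher and Tgtp1 A_52_P676510, Ifi47 and Gbp3 as lower, where 31.4% of all probes passed. These probes were also the ones whose stages did not overlap, against 23.9% of all probes in fetal liver and 29.2% in bone marrow. With 9 probes, these shares are near those of all probes. With averaged pairs 3 probes passed in each tissue, Ifi47 in bone marrow being the one lost (adjusted p = 0.0951).

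Tgtp1 A_52_P676510 was lower in Fr.B/C by -1.94 ± 0.14 in fetal liver (adjusted p = 5.13e-08) and by -1.09 ± 0.14 in bone marrow (adjusted p = 1.67e-05). Within the 2 fetal liver scan sessions, which are also the array pairs, the difference was -1.93 and -1.94. Within the 3 bone marrow sessions that hold both stages it was -1.25, -1.10 and -0.63. After scale normalization between arrays the bone marrow difference was -0.56 and did not pass (adjusted p = 0.286). The other Tgtp1 probe gave 0.01 ± 0.10 in fetal liver and -0.20 ± 0.10 in bone marrow, neither of which passed (adjusted p = 0.957 and 0.143).

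Ifi47 followed Tgtp1 A_52_P676510, with -1.46 ± 0.12 in fetal liver (adjusted p = 4.17e-07) and -0.53 ± 0.12 in bone marrow (adjusted p = 0.00389). The bone marrow value did not pass with median centring in place of loess (adjusted p = 0.222) or with scale normalization (-0.24, adjusted p = 0.496). Within sessions Ifi47 gave -1.31 and -1.62 in fetal liver and -0.56, -0.72 and -0.28 in bone marrow.

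Gbp2 was higher in Fr.B/C by 1.64 ± 0.13 in fetal liver (3.11-fold, adjusted p = 1.39e-07) and by 1.01 ± 0.13 in bone marrow (2.01-fold, adjusted p = 1.74e-05). Both calls held with averaged pairs (adjusted p = 0.00048 and 0.00242), and the value was positive in each of the 5 sessions with both stages, at 1.59 and 1.68 in fetal liver and 1.15, 0.62 and 1.23 in bone marrow. Gbp3, its neighbour on chromosome 3, gave 0.06 ± 0.14 in fetal liver (adjusted p = 0.826) and was lower in bone marrow Fr.B/C by -0.95 ± 0.14 (adjusted p = 8.89e-05, and 0.0148 with averaged pairs). Both genes thus had separate stage values in bone marrow, with opposite signs.

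The regulators and Iigp1 did not pass between stages in the main fit. That fit used all arrays and did not pair the 2 fractions of a sort. Igtp gave -0.05 in fetal liver (95% interval -0.24 to 0.14) and -0.02 in bone marrow (-0.21 to 0.17). Irgm1 gave -0.29 and -0.38 on its 2 probes in fetal liver (adjusted p = 0.206 and 0.224) and 0.07 and 0.20 in bone marrow (adjusted p = 0.775 and 0.516). When a block paired the samples by replicate number, the fetal liver Irgm1 differences passed (adjusted p = 0.0382 and 0.0468), and with averaged pairs they did not (adjusted p = 0.544 and 0.584). That the replicate number marks the sort was assumed. Iigp1 gave 0.33 ± 0.13 in bone marrow (adjusted p = 0.058). That call was reached with the replicate block (adjusted p = 0.0247), with the scan session as a random block (adjusted p = 0.0331) and without either bone marrow Fr.A array 2 (0.45, adjusted p = 0.00759) or bone marrow Fr.B/C array 1 (0.40, adjusted p = 0.039), and not with averaged pairs (adjusted p = 0.129). In fetal liver both stages of Iigp1 were below background, so no fold is given.

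**Figure D3:**
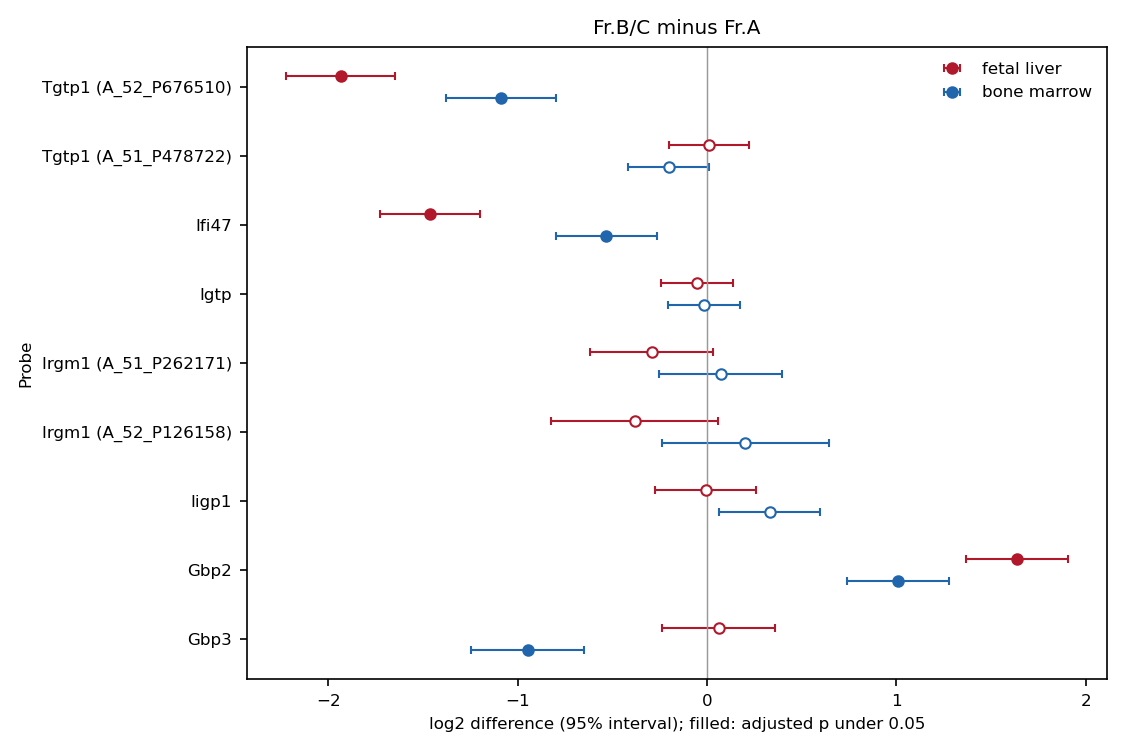
The log2 difference between Fr.B/C and Fr.A (x axis) for each member probe (y axis) in fetal liver and in bone marrow, with 95% intervals and filled points where the adjusted p is under 0.05. Gbp2 lies right of 0 in both tissues, at 1.64 and 1.01, and Tgtp1 A_52_P676510 and Ifi47 lie left of 0 in both, while Gbp3 is left of 0 in bone marrow and at 0.06 in fetal liver.

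The stage difference itself differed between the tissues for 4 of 9 probes in the test of the interaction, where 6.74% of all probes passed. The interaction is the stage difference in fetal liver minus that in bone marrow, and equally the tissue difference in Fr.B/C minus that in Fr.A. It was -0.85 ± 0.19 for Tgtp1 A_52_P676510 (adjusted p = 0.0148), -0.93 ± 0.18 for Ifi47 (adjusted p = 0.00471), 0.63 ± 0.18 for Gbp2 (adjusted p = 0.0468) and 1.01 ± 0.20 for Gbp3 (adjusted p = 0.0062). For the first 2 of these probes the fetal liver level fell further below bone marrow in Fr.B/C, and for Gbp2 and Gbp3 in Fr.A. The other Tgtp1 probe gave 0.21 ± 0.14, opposite in sign to A_52_P676510, and did not pass (adjusted p = 0.434). For Tgtp1 A_52_P676510 the value was -1.53 in the authors' deposited table and -1.63 on the processed signals. None of the 4 passed with averaged pairs (adjusted p = 0.346, 0.276, 0.274 and 0.243 in the same order), where 4 of the 9 had an unadjusted p under 0.05 in limma. The Gbp2 interaction also did not pass without any 1 array other than bone marrow Fr.A array 1 (adjusted p = 0.0543 to 0.102). The other 5 probes did not pass in the main fit (adjusted p = 0.283 to 0.907).

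The genes around the members on the chromosome were set beside them, taking RefSeq's order of protein-coding genes (GRCm38.p6) and 4 genes on either side. Irgm1, Tgtp1 and Ifi47 stand in that order on chromosome 11, with Tgtp2 between Tgtp1 and Ifi47. None of the genes between them had a probe that passed the filter. Outside the group, Rack1 (-0.19 in Fr.B/C and -0.25 in Fr.A) and the olfactory receptor genes Olfr56, Olfr1395 and Olfr1394 (from 0.07 to 0.24 in Fr.B/C and from -0.09 to 0.06 in Fr.A) did not pass between tissues. Igtp stands apart from them on chromosome 11, next to Irgm2, the remaining regulator of the family. Irgm2 was lower in fetal liver by -1.16 ± 0.33 in Fr.B/C (adjusted p = 0.0187) and by -0.87 ± 0.31 in Fr.A (adjusted p = 0.0495). On the other side of Igtp, beyond Gm12250, which had no named probe, Mrpl22, a mitochondrial ribosomal protein gene, was higher in fetal liver at 0.43 in Fr.B/C and 0.58 in Fr.A (adjusted p = 0.0447 and 0.00959), as was Gemin5 (0.41 and 0.40). Beyond Irgm2, 4930438A08Rik (-0.70 in Fr.B/C and -0.89 in Fr.A, adjusted p = 0.0305 and 0.00786) and the zinc finger gene Zfp672 (-0.62 and -0.51, adjusted p = 0.00146 and 0.00611) were lower in fetal liver, so lower levels here were not limited to GTPase genes.

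On chromosome 3 the RefSeq order runs Gbp5, Gbp7, Gbp3, Gbp2b and Gbp2. All 5 were lower in fetal liver in both fractions. Gbp5 gave -0.77 ± 0.14 in Fr.B/C and -0.76 ± 0.14 in Fr.A, Gbp7 gave -0.50 ± 0.13 and -0.45 ± 0.13, and Gbp2b gave -1.14 ± 0.20 and -1.12 ± 0.20. Kyat3, a kynurenine aminotransferase gene directly beyond Gbp2, was higher in fetal liver, at 0.59 in Fr.B/C and 0.69 in Fr.A (adjusted p = 0.00572 and 0.00176). Pkn2 was higher too (0.43 and 0.47) and 4930519L02Rik lower (-0.60 and -0.51). Pdlim5 on the far side of Gbp5 did not pass, at -0.13 and 0.10.

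**Figure D4:**
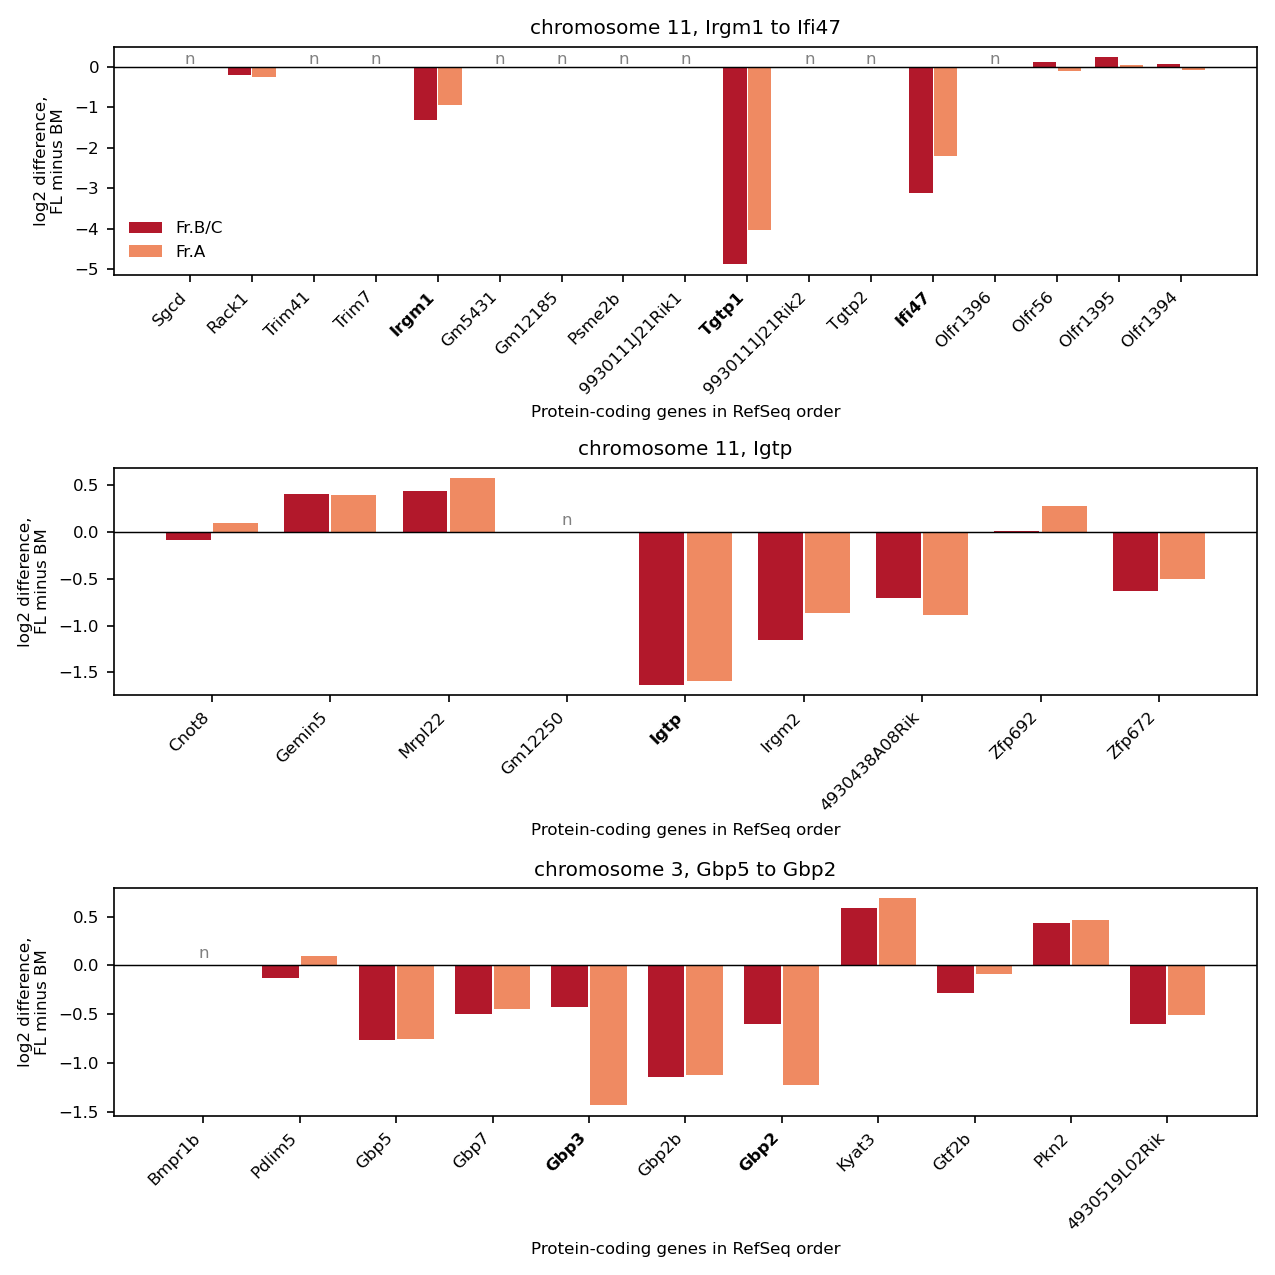
The log2 difference between fetal liver and bone marrow (y axis) in Fr.B/C and Fr.A for protein-coding genes in RefSeq order around the members (bold), with evenly spaced positions and the letter n where no probe passed the filter. The bars of Irgm1, Tgtp1, Ifi47, Igtp, Irgm2 and the 5 Gbp genes point down in both fractions, as do those of 4930438A08Rik, Zfp672 and 4930519L02Rik, and those of Kyat3, Pkn2, Gemin5 and Mrpl22 point up.

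Other GTPases listed as interferon-inducible were lower in fetal liver too. The list is not limited to the 2 families of the members, and Mx2 and Gvin1 stand outside both. Of 23 listed, 11 had a probe that passed the filter. In Fr.B/C 10 of the 11 were lower and none higher, where 15.5% of all named genes were lower, with a median of -0.77 against 0.03 over all named genes. In Fr.A all 11 were lower, where 14.9% of named genes were, with a median of -0.79 against 0.01. Gvin1, a very large GTPase, gave -1.53 ± 0.13 in Fr.B/C and -1.64 ± 0.13 in Fr.A, and Gbp9 gave -0.997 ± 0.093 and -0.66 ± 0.09. Gbp8 gave -0.07 ± 0.12 in Fr.B/C (adjusted p = 0.736) and -1.61 ± 0.12 in Fr.A, a split like that of Gbp3. Some genes counted as lower were well above background on no fetal liver array, namely Gbp6 in both fractions, Gbp4 in Fr.A and Mx2 in Fr.B/C, so their sizes are not given. Gbp6 passed the filter only through bone marrow, so its place among the lower genes was largely set in advance. With averaged pairs 6 of 11 passed in Fr.B/C and 8 in Fr.A.

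The upstream pathway was lower in part. Of 12 STAT and IRF genes with a kept probe, 8 were lower in Fr.B/C and 9 in Fr.A, with none higher. Among all named genes 15.5% and 14.9% were lower in these fractions. On the fetal liver Fr.B/C arrays 1 of the 12 was well above background on no array. Irf9, the DNA-binding part of the complex on the ISRE, gave -2.48 ± 0.12 in Fr.B/C and -1.29 ± 0.12 in Fr.A, and Stat2, its partner, gave -0.57 ± 0.07 and -0.23 ± 0.07. Irf1, a target and activator in the gamma pathway, gave -0.87 ± 0.16 in Fr.B/C and -1.20 ± 0.16 in Fr.A, and Irf8, a factor of myeloid and B cells, gave -1.81 ± 0.08 and -0.70 ± 0.08. Irf2 and Irf3 did not pass in either fraction (adjusted p = 0.566 to 0.891).

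Receptor genes were mixed. Of 13 receptor and signalling genes, 7 were lower and 2 higher in Fr.B/C, and 5 were lower and none higher in Fr.A. Of all named genes, 15.5% were lower and 15.6% higher in Fr.B/C, and 14.9% and 13.8% in Fr.A. The type I receptor chain Ifnar1 was lower at -1.04 ± 0.08 in Fr.B/C and -0.32 ± 0.08 in Fr.A, and Ifnar2 gave -0.45 ± 0.11 (adjusted p = 0.0054) and -0.08 ± 0.11 (adjusted p = 0.631). The gamma receptor chain Ifngr1 was higher in fetal liver Fr.B/C at 0.43 ± 0.11 (adjusted p = 0.00849) and gave 0.19 ± 0.11 in Fr.A (adjusted p = 0.219). Ifngr2 did not pass in either (0.20 and 0.17, adjusted p = 0.295 and 0.387). The kinase gene Jak1 was lower at -0.59 ± 0.10 and -0.88 ± 0.10, while Socs3, a feedback inhibitor of cytokine receptors, was higher in fetal liver Fr.B/C at 1.79 ± 0.17 (adjusted p = 1.26e-06) and gave 0.04 ± 0.17 in Fr.A (adjusted p = 0.881). The ligand genes Ifna1, Ifng and Ifnl3 did not pass (adjusted p = 0.187 to 0.79), and no probe of Ifnb1, Ifna4 or Ifnk passed the filter on dim probes. Of the 3 that were kept, 1 was well above background on all arrays of each fetal liver group and of bone marrow Fr.B/C. In bone marrow Fr.A 2 were. A difference in the dim ligand genes could therefore be missed.

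Of 32 other interferon-stimulated genes, 29 were lower in Fr.B/C and 27 in Fr.A, with none higher, and the medians were -1.10 and -1.05. Oas1a and Dhx58, sensors in the antiviral response, gave -2.76 ± 0.09 and -2.35 ± 0.13 in Fr.B/C, and -1.77 ± 0.09 and -2.05 ± 0.13 in Fr.A. Rsad2, which encodes the antiviral protein viperin, gave 0.78 ± 0.39 in Fr.B/C and 0.50 ± 0.39 in Fr.A and did not pass (adjusted p = 0.157 and 0.397). No gene of these interferon lists that passed changed sign under the other scalings, with the pairs averaged or with pairs or scan session as a random block. With averaged pairs 23 of the 32 passed as lower in Fr.B/C and 22 in Fr.A.

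**Figure D5:**
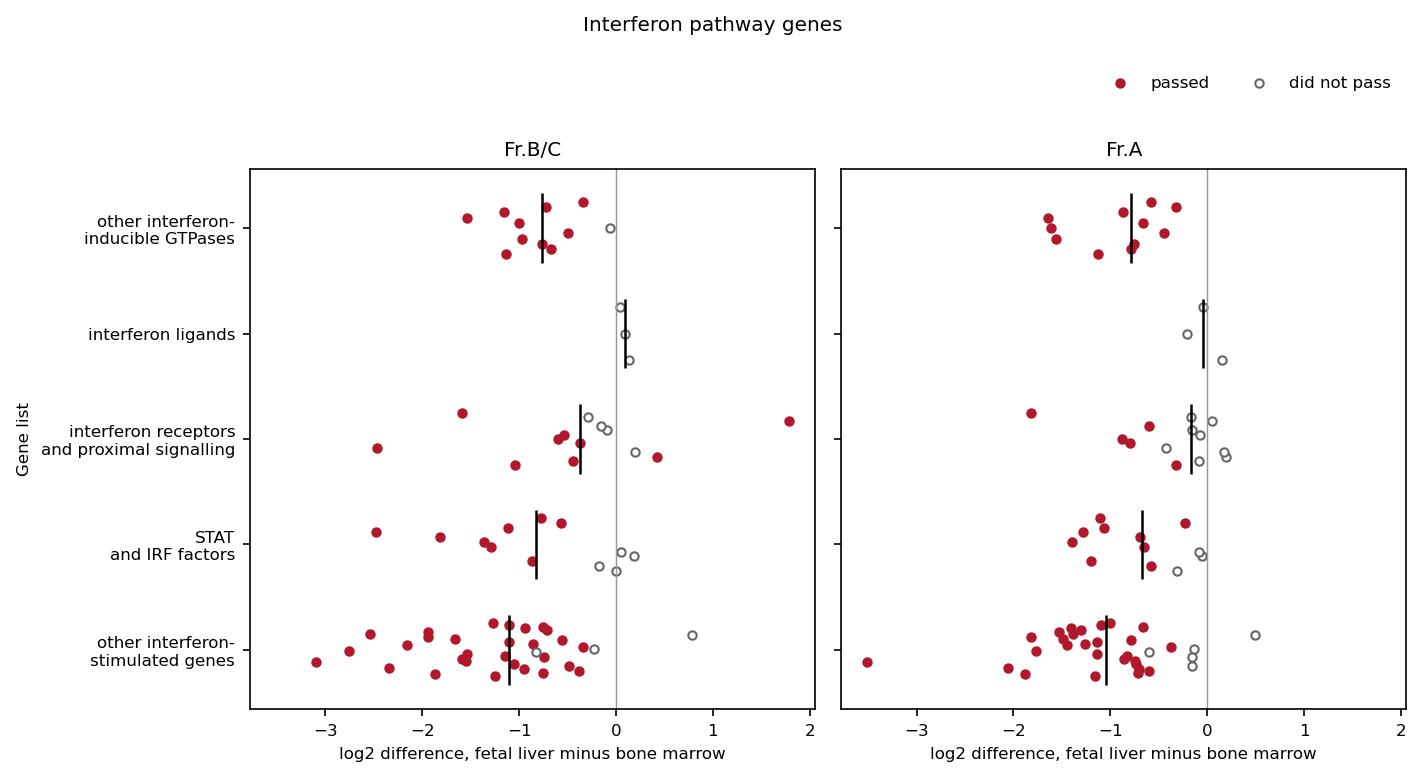
The log2 difference between fetal liver and bone marrow (x axis) of every measured gene in 5 interferon lists (y axis), in Fr.B/C and Fr.A, filled where the adjusted p is under 0.05, with the list median as a line. The other GTPases, and all the other stimulated genes except Rsad2, lie left of 0 with list medians from -0.77 to -1.10. The ligands, some of them dim, lie around 0, and the receptor list spreads to both sides in Fr.B/C.

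Over the 16 arrays the mean member profile, centred per gene, was most like those of Casp1 (r = 0.987), Sytl4 (0.986), H2-T23 (0.986), Ifi44 (0.985), H2-Q1 (0.985), H2-Q7 (0.984), Dnajc6 (0.983) and Erbb3 (0.983) among 13778 named genes. H2-T23, H2-Q1 and H2-Q7 encode MHC class I molecules of like sequence, Casp1 is the inflammasome protease, and Ifi44 is in the list of stimulated genes. The arrays share one reference and the gap between tissues, so the values are a description. Igtp (0.987), Tgtp1 (0.975), Iigp1 (0.973), Ifi47 (0.960) and Irgm1 (0.948) followed the mean closely, but each member is part of that mean, so its r is partly built in. Gbp3 (0.810) ranked 585 and Gbp2 (0.450) ranked 2767 among the named genes.

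Cell type markers were compared between tissues as well. Among all named genes 15.5% were lower and 15.6% higher in fetal liver in Fr.B/C, and 14.9% and 13.8% in Fr.A. In lists this small, several of the counts below are not far from those shares. Of the 11 B-lineage genes, fetal liver had 5 at a lower level in Fr.B/C and 3 in Fr.A, with none higher. Their mean level on an array was 0.60 to 0.85 in fetal liver Fr.B/C, -0.14 to 0.04 in fetal liver Fr.A, 1.77 to 2.23 in bone marrow Fr.B/C and 0.805 to 1.095 in bone marrow Fr.A. The median difference between tissues was smaller, at -0.36 in Fr.B/C and -0.22 in Fr.A. A single gene with a large difference can move a mean of 11 genes. In fetal liver, 2 of 9 measured NK cell markers were lower in Fr.B/C and 7 in Fr.A. The mean NK level on an array was -1.19 to -1.01 in fetal liver Fr.B/C, -0.46 to -0.27 in fetal liver Fr.A, -0.62 to -0.53 in bone marrow Fr.B/C and 0.53 to 0.78 in bone marrow Fr.A. The NK receptor gene Ncr1 was not well above background on any array outside bone marrow Fr.A, where 3 of 4 arrays were.

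Of 11 erythroid markers 10 were higher in fetal liver in each fraction and 1 was lower in Fr.A. The erythroid transcription factor gene Klf1 was among the higher ones (2.52 ± 0.45 in Fr.B/C and 2.63 ± 0.45 in Fr.A). Their mean level was 2.41 to 3.58 in fetal liver Fr.B/C, 2.30 to 3.62 in fetal liver Fr.A, 1.02 to 1.34 in bone marrow Fr.B/C and 1.38 to 1.61 in bone marrow Fr.A. With averaged pairs 3 and 2 of the 11 passed as higher. Alas2 changed sign in Fr.A on the scanner software's processed signals (-0.16). Of 10 plasmacytoid dendritic cell markers 2 were higher and 3 lower in Fr.B/C, and 4 higher and 3 lower in Fr.A, with mean levels of -0.55 to -0.26, 0.63 to 0.71, -0.47 to -0.26 and 0.30 to 0.49 in the same order of groups. Irf8 and Bst2 stand both in that list and in the interferon lists. Of 12 myeloid markers none was higher and 3 were lower in Fr.B/C, and 3 were higher and 3 lower in Fr.A, and of 8 T-lineage markers 3 were lower in each fraction and 1 was higher in Fr.B/C. The part of these cells in the GTPase differences was not tested.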

How the data were processed

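Per the labels, RNA was amplified, labelled with Cy3 or Cy5 and hybridised against the pooled cell line RNA, with the sample in Cy5 on arrays 1 and 3 and in Cy3 on arrays 2 and 4. Per the file headers, Feature Extraction 8.5.1.1 produced the spot intensity values in the deposited scanner files. The authors' deposited table of log2 ratios was made with limma, per the submitters' processing notes, with no version or settings given in the sources used here. Its array medians were -0.00731 to 0.0202 and its values correlated with those used here at 0.930 to 0.951 across probes in the sample-over-reference direction, with the exact normalization unknown. It was used as an alternative.

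Mean intensities were background-corrected with normexp (offset 50) and loess-normalized in limma 3.58.1 (R 4.3.3), control spots left out. Ratios were turned to sample over reference. A probe was kept if well above background in the sample channel on at least 3 of 4 arrays of any group and usable on at least 12 arrays. Group means and a dye term were fitted over all 16 arrays (11 residual degrees of freedom) with lmFit and eBayes, and p-values were adjusted by Benjamini-Hochberg over 27522 probes for each of 5 comparisons, with a threshold of 0.05. The script was tested on simulated data with independent noise on every array, which does not cover the likeness within array pairs. Precision is limited by how many arrays there are. Of 41174 probes, 22072 were named through RefSeq accessions, 135 through another listed accession, 1095 through a symbol in the description, 2655 through a RIKEN clone and 15217 were unnamed. A gene in a list was read by its brightest kept probe, and all member probes and the 8 genes of most similar profile were named. The member genes and the gene lists were chosen with earlier results of these data known. The labels name 4 separate sorts, each giving both fractions, which the main fit did not pair. Deviations of same-numbered Fr.B/C and Fr.A samples of a tissue correlated at 0.253 to 0.528 in all 8 pairs, by which the numbers were taken to pair the samples. Differently numbered samples of the same array pair correlated at 0.216 to 0.420, so the values do not tell the number from the array pair. Same-numbered Fr.B/C samples of the 2 tissues, which come from different animals, also correlated, at 0.494, 0.304, 0.321 and 0.340. Fr.A samples did so less, at 0.007, -0.236, 0.175 and 0.142. A correlation by number therefore does not show that samples share a sort. Alternatives changed the background correction, scaling, filter, variance model, dye term, blocks, and left out each array. Values of some single genes are not reported here.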

Additional observations from a re-analysis of the deposited data

Results flagged for a closer look

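In bone marrow Fr.B/C, array 3 read 2.27 for Ifi47, apart from the other arrays of its group at 2.63 to 2.64. This was 1 flag among 36 groups of 4 arrays by Dixon's test at its 95% critical value, and chance flags about 1 in 20 groups. The Ifi47 tissue difference passed without that array.

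The stage difference (Fr.B/C minus Fr.A) differed between fetal liver and bone marrow, by the interaction test, for 4 probes. The interaction was -0.85 for Tgtp1 A_52_P676510 and -0.93 for Ifi47. It was 0.63 for Gbp2 and 1.01 for Gbp3. None passed with array pairs averaged, and with median centring in place of loess the adjusted p was 0.160, 0.115, 0.397 and 0.141 in that order. The Gbp2 interaction did not pass either without any 1 array other than bone marrow Fr.A array 1, with an adjusted p of 0.0543 to 0.102.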

How the results depend on the processing

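No member result that passed changed sign under any alternative, while small differences that did not pass did, such as Igtp between bone marrow stages (-0.02, and 0.11 with median centring). The erythroid marker Alas2 passed in Fr.A and changed sign on the processed signals, as given above. Both tissue comparisons kept every member call except Irgm1 A_52_P126158 in Fr.A, and Tgtp1 A_51_P478722, Gbp2 and Gbp3 in Fr.B/C, as given above. Without 1 array, the members that passed numbered 9 in Fr.A, 8 to 9 in Fr.B/C, 4 to 5 between bone marrow stages, 3 between fetal liver stages and 3 to 4 for the interaction. The probes that passed were 6325 to 7673, 6002 to 8041, 7426 to 8907, 4974 to 6320 and 1302 to 1944 in that order, against 7717, 7736, 8640, 6115 and 1855 on all arrays. Averaged pairs left 2640, 2133, 3737, 2091 and 41, and with a term for the pair 4590, 4433, 5573, 3463 and 236, with 0 members for the interaction in both (4 at an unadjusted p under 0.05 in limma). Pairs as a random block (correlation 0.579) left 4542, 4258, 5356, 3564 and 492, with 1 member for the interaction. Median centring left 4691 probes in Fr.A, 4979 between bone marrow stages, 3227 between fetal liver stages and 492 for the interaction, with 0 members there (4 at an unadjusted p under 0.05). It moved the share of higher probes among those that passed to 23.7% from 44.1% in Fr.A, to 18.9% from 47.8% in Fr.B/C and to 31.6% from 45.1% between fetal liver stages. Scale normalization left 2 members between bone marrow stages, and 1 member and 1041 probes for the interaction. With the replicate block 5 members passed between fetal liver stages and 4383 probes for the interaction. A replicate block with numbers shared by both tissues gave 3262 for the interaction, a random block for scan session 3608 and a fixed one 3639. The shared-number block, the fixed session block and the pair term were chosen after seeing the data. Fetal and adult samples come from different animals, so a block within tissue gives no tissue difference. The cause of these changes was not tested, beyond the fewer values that averaging leaves. Dim probes such as Iigp1 in fetal liver give bounds only.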
